A study of Homo sapiens with 12 samples.

Results

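The genes described here are the 4 Argonaute genes AGO1, AGO2, AGO3 and AGO4 and the 6 genes DROSHA, DGCR8, XPO5, DICER1, TARBP2 and PRKRA, which together make and load microRNAs. They were chosen by gene symbol, with earlier results of these data known, and are 10 of the 60660 genes quantified in each library. MicroRNAs are cut in the nucleus from longer transcripts by the Microprocessor, which is formed by the nuclease DROSHA and its RNA-binding partner DGCR8. The hairpin is carried to the cytoplasm by exportin-5 (XPO5) and cut again by the nuclease DICER1, which works with the RNA-binding proteins TRBP (TARBP2) and PACT (PRKRA). The short product is then loaded into an Argonaute protein, which it guides to mRNAs with a matching site. AGO2 is the Argonaute known to cut its targets efficiently. The PIWI proteins, which carry piRNAs, form the other branch of the Argonaute family.

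The libraries were mRNA sequencing of LNCaP and 22Rv1 cells, established human prostate cancer (PCa) lines from a lymph node metastasis and from a xenograft that relapsed after castration. Cells of each line received either NC-mimic, a negative control, or piR-4447944 mimic, a synthetic copy of that piRNA, and all cells were kept in androgen-deprived medium with 10% charcoal-stripped serum (CS-FBS). Each of the 4 groups (LNCaP NC-mimic, LNCaP piR-4447944 mimic, 22Rv1 NC-mimic and 22Rv1 piR-4447944 mimic) held 3 libraries, 12 in all. Both mimics are transfected small RNAs, no group without transfection was analysed here, and each side of a comparison between lines is a single cell line. The study speaks of independent experiments for the assays it shows with this sequencing, but the labels do not tie the libraries to separate cultures, so p-values measure the spread between these libraries, part of which may be technical.

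Libraries summed to between 12161091 and 22179601 expected counts, the estimated reads per gene, and each of the 10 genes held between 348 and 4398 expected counts in every library and entered every test. Of 8 luminal prostate markers, 8 reached 1 TPM (transcript abundance per length, with the same sum in every library) in every group, and their summed TPM lay between 4760 and 5220 in LNCaP and between 1870 and 2520 in 22Rv1. Of the 3 basal markers 0 reached that level in any library. The summed TPM of 5 fibroblast markers lay between 26.0 and 44.5 in LNCaP, most of it COL1A1, and between 7.81 and 27.8 in 22Rv1, and that of 4 leukocyte markers between 1.39 and 9.45 over all libraries. The part of these markers in the differences below was not tested. The common coefficient of variation between replicates was 0.0964 in LNCaP and 0.343 in 22Rv1, and in 22Rv1 the replicate 3 libraries stood apart from the others, so the member results that move most with them are given with and without them.

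DICER1 and DGCR8 carry microRNAs inside their own transcripts, and these are shown because the DGCR8 hairpins are known to be cut by the Microprocessor itself. In each sequence the capitals mark the seed, bases 2 to 8, with which a microRNA finds its targets. The sequences are from RefSeq (GRCh38.p14) and run 5′ to 3′.
hsa-miR-3618: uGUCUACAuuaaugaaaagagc
hsa-miR-1306-5p: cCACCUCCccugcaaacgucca
hsa-miR-1306-3p: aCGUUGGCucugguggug
hsa-miR-3173-5p: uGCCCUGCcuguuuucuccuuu
hsa-miR-3173-3p: aAAGGAGGaaauaggcaggcca
The sequence of hsa-miR-3618 lies at chr22:20085797-20085818 on the plus strand, in an exon of DGCR8 outside its coding sequence. Those of hsa-miR-1306-5p (chr22:20086072-20086093) and hsa-miR-1306-3p (chr22:20086112-20086129) lie in DGCR8 exon sequence that is coding in at least some transcripts. Those of hsa-miR-3173-5p (chr14:95137961-95137982) and hsa-miR-3173-3p (chr14:95137923-95137944) lie in an intron of DICER1, on the minus strand. No pair of these 5 seeds is the same. Mature microRNAs were not measured in these libraries, and the separate entries for MIR3618, MIR1306 and MIR3173 were at 0 CPM (expected counts relative to the scaled size of the library) in all of them.

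AGO4, AGO1 and AGO3 stand next to each other on the plus strand of chromosome 1 (hg38, GENCODE 44), at chr1:35808016-35857890, chr1:35869808-35930532 and chr1:35930718-36072500, and AGO2 lies on another chromosome. In the files they are ENSG00000134698.11, ENSG00000092847.13, ENSG00000126070.20 and ENSG00000123908.12. DROSHA is at chr5:31400494-31532196, DICER1 at chr14:95086228-95158010, XPO5 at chr6:43522334-43576038 and PRKRA at chr2:178431292-178451512, all on the minus strand. DGCR8 is at chr22:20080221-20111877 and TARBP2 at chr12:53500921-53506431, both on the plus strand. Their identifiers, in the order named, are ENSG00000113360.16, ENSG00000100697.15, ENSG00000124571.18, ENSG00000180228.14, ENSG00000128191.16 and ENSG00000139546.11. GENCODE 44 gives other versions of the identifiers of AGO1, DROSHA, DICER1, DGCR8 and TARBP2. Transcripts with the same version there were 4 of 5 for AGO1, 19 of 21 for DROSHA, 12 of 17 for DICER1 and 7 of 10 for DGCR8. For AGO2, AGO3, AGO4, XPO5, TARBP2 and PRKRA all transcripts had the same version.

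The level of each gene was first compared within a group on the TPM scale. TARBP2 was the highest of the 10 in every group, with 42.7 ± 7.05 TPM in LNCaP NC-mimic, 41.8 ± 2.48 in LNCaP piR-4447944 mimic, 40.8 ± 5.70 in 22Rv1 NC-mimic and 46.9 ± 2.62 in 22Rv1 piR-4447944 mimic (SD, n = 3 each). The lowest was AGO4 in both LNCaP groups, with 12.8 ± 1.49 and 9.71 ± 0.933 TPM, and AGO3 in both 22Rv1 groups, with 5.94 ± 0.683 and 8.27 ± 0.652 TPM (SD, n = 3 each). The highest mean was 3.33, 4.31, 6.88 and 5.67 times the lowest in the same order of groups, so the 10 genes lay within a 7-fold range.

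Most neighbours in that order did not separate. In LNCaP NC-mimic the order was TARBP2, DROSHA, AGO2, PRKRA, DICER1, DGCR8, XPO5, AGO1, AGO3, AGO4, and the libraries of 8 of the 9 neighbouring pairs overlapped, the exception being AGO1 above AGO3. With piR-4447944 mimic 6 of 9 pairs overlapped in LNCaP, and XPO5, AGO1, AGO3 and AGO4 stood clear of each other in that order. In 22Rv1 NC-mimic the order was TARBP2, XPO5, DGCR8, DROSHA, PRKRA, AGO2, DICER1, AGO1, AGO4, AGO3, and 7 of 9 pairs overlapped, with AGO1, AGO4 and AGO3 clear of each other. In 22Rv1 piR-4447944 mimic 8 of 9 pairs overlapped, with AGO1 clear of AGO3.

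**Figure D1:**
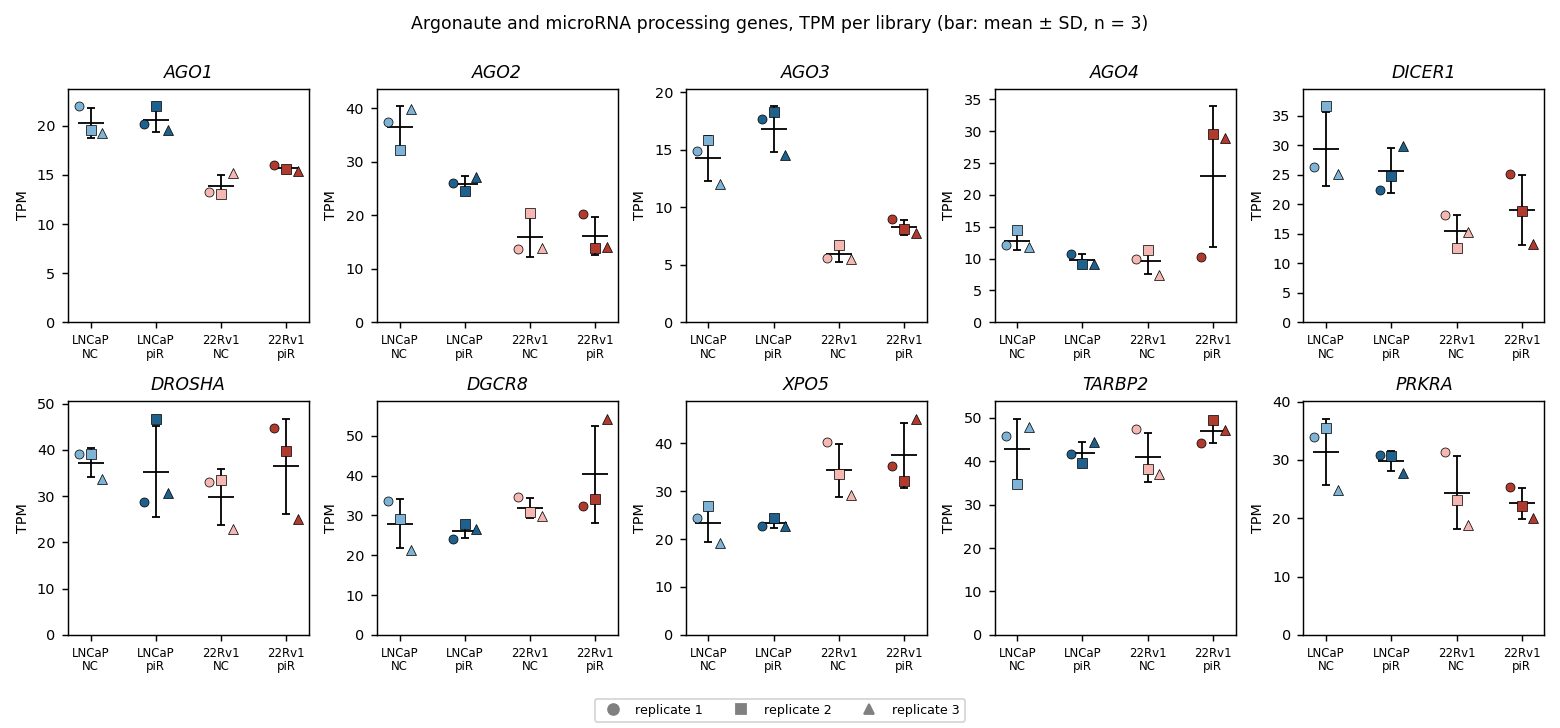
TPM of each of the 10 genes (y axis, from 0) in the 12 libraries, by group on the x axis (NC, NC-mimic. piR, piR-4447944 mimic), with symbols for the replicate number and the bar for the mean ± SD of 3 libraries. AGO1, AGO2 and AGO3 were lower in every 22Rv1 library than in every LNCaP library, though by counts AGO3 was called higher with piR-4447944 mimic and did not pass with NC-mimic, XPO5 was higher, and AGO4 was near 29 TPM in 2 of the 3 22Rv1 piR-4447944 mimic libraries.

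The first comparison asked how the lines differ without the piRNA, over the NC-mimic libraries. The nucleases DROSHA and DICER1 and the Argonautes AGO1 and AGO2 had fewer reads in 22Rv1, and the exporter XPO5 had more. By edgeR's quasi-likelihood test on expected counts with Benjamini-Hochberg adjustment over 17497 genes, 4 of the 10 genes were lower and 1 was higher in 22Rv1 at an adjusted p under 0.05. Of all genes tested, 27.5% were lower and 30.9% higher by the same rule, so calls were common in the background. The median log2 difference was -0.07 over the 10 genes and 0.01 over all genes.

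DROSHA, the nuclear nuclease, was at 87.6, 91.2 and 80.3 CPM in LNCaP NC-mimic and at 60.5, 60.4 and 56.9 CPM in 22Rv1 NC-mimic. All 22Rv1 libraries were below all LNCaP libraries, and the log2 difference was -0.55 (SE 0.094, edgeR adjusted p = 0.00136). Its partner DGCR8 was at 78.9, 79.8 and 58.5 CPM in LNCaP and 90.6, 84.3 and 73.3 CPM in 22Rv1, which overlap, with a log2 difference of 0.18 (SE 0.14, adjusted p = 0.305 by edgeR). DROSHA thus passed the test and DGCR8 did not, and the difference between them was not itself tested.

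XPO5, which exports the hairpins, was at 71.2, 79.0 and 66.7 CPM in LNCaP NC-mimic and at 108, 106 and 105 CPM in 22Rv1 NC-mimic. The groups did not overlap, and the log2 difference was 0.55 (SE 0.096, adjusted p = 0.00153 by edgeR), a ratio of 1.46 with a 95% interval from 1.25 to 1.70.

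DICER1 was at 144, 157 and 119 CPM in LNCaP NC-mimic and at 103, 87.2 and 99.5 CPM in 22Rv1 NC-mimic, again without overlap, with a log2 difference of -0.55 (SE 0.12, adjusted p = 0.00547 by edgeR). The DICER1 partners did not pass the test. TARBP2 differed by 0.14 on the log2 scale (SE 0.15, adjusted p = 0.448 by edgeR) and PRKRA by -0.11 (SE 0.14, adjusted p = 0.522).

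AGO2 was at 228, 211 and 218 CPM in LNCaP NC-mimic and at 148, 128 and 160 CPM in 22Rv1 NC-mimic, and its log2 difference of -0.60 (SE 0.10, adjusted p = 0.0014 by edgeR) was the largest decrease of the 10 genes. AGO1 was at 156, 140 and 139 CPM against 118, 123 and 121 CPM, also without overlap, with a smaller log2 difference of -0.27 (SE 0.087, adjusted p = 0.0266 by edgeR). The AGO1 call was lost without LNCaP NC-mimic replicate 1, at -0.23, without 22Rv1 NC-mimic replicate 1, at -0.25, and without 22Rv1 NC-mimic replicate 2, at -0.29. AGO4 differed by -0.03 (SE 0.15, adjusted p = 0.889 by edgeR), and by 0.09 without 22Rv1 NC-mimic replicate 3. AGO3 was at 53.8, 54.8 and 46.4 CPM in LNCaP and at 66.3, 72.8 and 48.5 CPM in 22Rv1, with a log2 difference of 0.27 (SE 0.16, adjusted p = 0.183 by edgeR), and it was called higher, at 0.42, when 22Rv1 NC-mimic replicate 3 was left out. Without that library 6 of the 10 genes were called, and 66.2% of all genes against 58.4% with it.

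The same comparison over the piR-4447944 mimic libraries used the other 6 libraries and shares none with the first. By edgeR over 17283 genes, 1 of the 10 genes was lower and 2 were higher in 22Rv1, where 24.2% of all genes were lower and 28.2% higher. AGO2 was again lower, at 202, 212 and 209 CPM in LNCaP and 166, 153 and 125 CPM in 22Rv1, with a log2 difference of -0.49 (SE 0.12, adjusted p = 0.0128 by edgeR), a call that was lost, at -0.48, without LNCaP piR-4447944 mimic replicate 2. XPO5 was again higher, at 75.2, 67.2 and 67.3 CPM in LNCaP and 99.7, 102 and 119 CPM in 22Rv1, with a log2 difference of 0.62 (SE 0.11, adjusted p = 0.00314 by edgeR). AGO2 and XPO5 were the members called in the same direction in both comparisons. Of all genes tested in both, 24.9% were called higher and 21.5% lower in 22Rv1 in both, so such calls were common in the background.

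AGO3 passed the count test here, at 50.6, 52.6 and 53.7 CPM in LNCaP and 77.4, 80.7 and 73.7 CPM in 22Rv1, with a log2 difference of 0.57 (SE 0.089, adjusted p = 0.00194 by edgeR). The 3 other genes called with NC-mimic had log2 differences of -0.16 (AGO1), -0.35 (DICER1) and -0.46 (DROSHA) and did not pass, with adjusted p of 0.117, 0.0879 and 0.097 by edgeR. DGCR8 had a log2 difference of 0.41 (adjusted p = 0.0513) and AGO4 one of 0.59 (adjusted p = 0.0878). A single library weighed on these values, 22Rv1 piR-4447944 mimic replicate 3, in which DROSHA was at 42.6 CPM against 69.3 and 68.7 in the other 2 libraries. Without it the log2 differences were smaller for DICER1 (-0.22), DROSHA (-0.26), DGCR8 (0.26) and AGO4 (0.29), while more genes were called, 7 of the 10 and 69.5% of all genes against 52.4% with it. These 7 were AGO1, AGO2, DICER1 and DROSHA, which were lower, and AGO3, DGCR8 and XPO5, which were higher, and AGO4 did not pass (adjusted p = 0.0693 by edgeR). Without replicate 1 of the same group the log2 differences were larger for AGO4 (0.82) and DICER1 (-0.48), and 6 of the 10 genes were called, where 47.3% of all genes were.

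**Figure D2:**
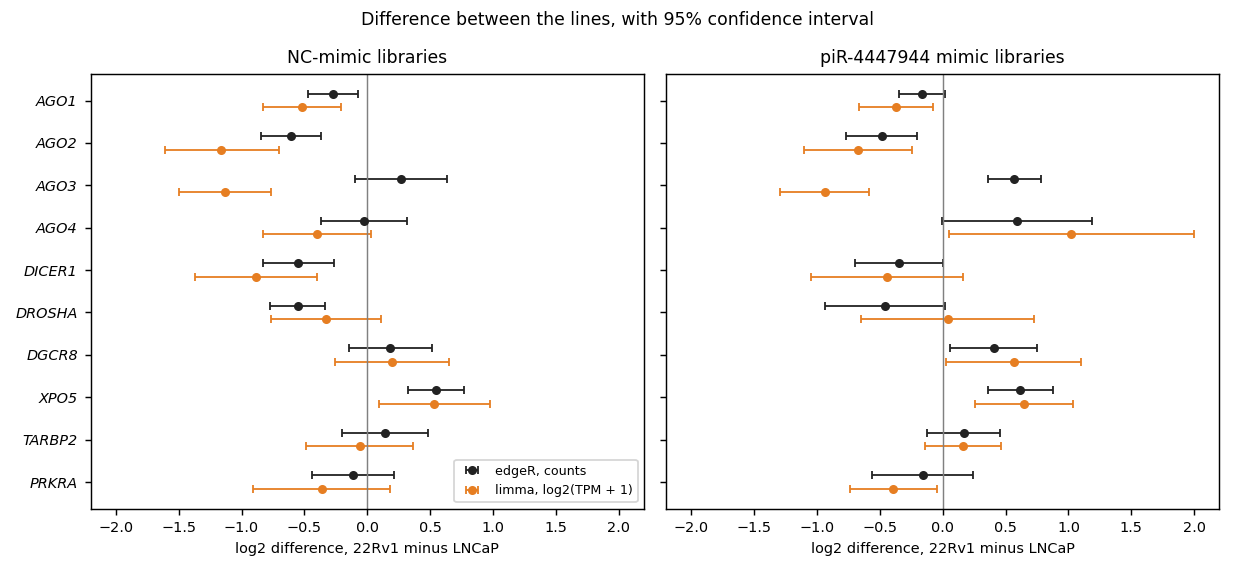
Log2 difference between 22Rv1 and LNCaP (x axis) for the 10 genes, with 95% confidence intervals, in the NC-mimic libraries (left) and the piR-4447944 mimic libraries (right). Black points are edgeR on expected counts and orange points limma on log2(TPM + 1). AGO3 lies to the right of 0 by counts and to the left by TPM in both panels.

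On the TPM scale the direction of AGO3 turned. AGO3 was at 14.9, 15.8 and 12.1 TPM in LNCaP NC-mimic and at 5.62, 6.72 and 5.47 TPM in 22Rv1 NC-mimic, and at 17.7, 18.3 and 14.5 TPM against 9.00, 8.08 and 7.74 TPM with piR-4447944 mimic. Every 22Rv1 library was below every LNCaP library, and limma on log2(TPM + 1) gave a log2 difference of -1.13 (SE 0.15, adjusted p = 0.00116) and of -0.94 (SE 0.14, adjusted p = 0.00286). With piR-4447944 mimic AGO3 thus had more reads in 22Rv1 but a lower level per length, while with NC-mimic the level per length was lower and the difference in reads, of the opposite sign, did not pass.

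On the same scale 5 of the 10 genes were called with NC-mimic, where 52.4% of all genes were, and 4 of the 10 with piR-4447944 mimic, where 45.8% were. AGO2 was at 37.3, 32.1 and 39.9 TPM against 13.7, 20.4 and 13.9 TPM with NC-mimic, a log2 difference of -1.16 (SE 0.19, adjusted p = 0.00267 by limma), which is larger than by counts. AGO1 was lower by limma in both comparisons, at -0.52 and -0.37, and XPO5 higher, at 0.53 and 0.65, the first a call that was lost, at 0.55, with a pseudocount of 0.1. DICER1 was lower with NC-mimic, at -0.88 (adjusted p = 0.0106 by limma). DROSHA, which was called by counts with NC-mimic, differed by -0.33 on this scale in those libraries (SE 0.18, adjusted p = 0.175 by limma). With piR-4447944 mimic it differed by 0.04 (SE 0.29, adjusted p = 0.922 by limma), against -0.46 by counts.

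The length that RSEM assigned to each gene was then compared, since TPM divide the reads by it. RSEM estimates how the reads of a gene divide between its annotated transcripts, and the gene length is the mean length of these transcripts weighted by their estimated abundance. AGO3 was assigned 5035, 4875, 5155, 4027, 4038 and 5072 bases in the 6 LNCaP libraries and 15323, 13629, 11161, 11270, 13347 and 12798 bases in the 6 22Rv1 libraries. The shortest 22Rv1 value was more than 2 times the longest LNCaP value, and the mean was 2.75 times higher (12921 ± 1568 against 4700 ± 525 bases, SD, n = 6, exact two-sided permutation test p = 0.00216, which is the smallest this design allows, adjusted p = 0.0108 over the 10 genes). A ratio at least as large in either direction was seen in 33 of 18297 genes (0.18%).

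Of the annotated AGO3 transcripts, the longest, AGO3-203, has 19660 bases, of which 16755 are 3'UTR. The other long transcripts are AGO3-201 with 3211 bases, of which 717 are 3'UTR, and AGO3-207 with 3599 bases. The assigned length in 22Rv1 lay between these, nearer to AGO3-203 than in LNCaP. Levels of single transcripts were not analysed here, and the deposited lengths come with no error, so how certain the division between transcripts is remains unknown.

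Lengths of the other Argonautes differed less. AGO1 was assigned 8865 to 9785 bases in LNCaP and 10075 to 11819 in 22Rv1, without overlap, a ratio of 1.16 (exact permutation p = 0.00216, adjusted p = 0.0108). Its longest transcript, AGO1-201, has 13712 bases and AGO1-202 has 3996. AGO2 was assigned 7203 to 11622 bases in LNCaP and 7964 to 14595 in 22Rv1, which overlap (exact permutation p = 0.0541, adjusted p = 0.108), between AGO2-205 with 3141 bases and AGO2-201 with 14595. Its mean difference of 2799 bases did not pass, but it passed, at 3670 bases, without 22Rv1 NC-mimic replicate 2. AGO4 overlapped as well, at 5221 to 7272 against 3276 to 7272 bases (exact permutation p = 0.721, adjusted p = 0.721), and in 3 libraries its length was that of AGO4-201, 7272 bases. The other annotated AGO4 transcripts, AGO4-202 with 522 bases and AGO4-203 with 297, have no defined coding sequence. A length under 7272 bases therefore means that part of the AGO4 TPM was assigned to these short transcripts.

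Of the processing genes, DROSHA was assigned shorter lengths in 22Rv1, at 0.775 times the LNCaP mean (exact permutation p = 0.0108, adjusted p = 0.036), and PRKRA longer ones, at 1.13 times (exact permutation p = 0.0173, adjusted p = 0.0432). The ranges of both overlapped between the lines. The adjusted p of both exceeded 0.05 in most runs with a single library left out. The lengths of DICER1, DGCR8, XPO5 and TARBP2 did not pass the test, with ratios of 1.14, 0.916, 0.961 and 1.04. Lengths did not overlap between the lines in 2 of the 10 genes, AGO1 and AGO3, and in 7.18% of all genes.

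**Figure D3:**
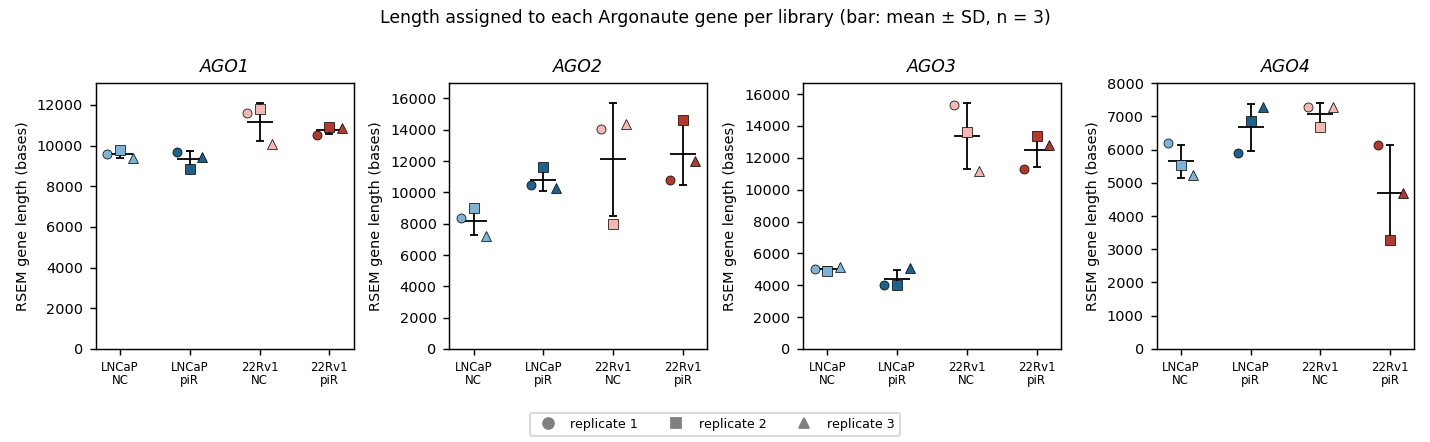
Length assigned by RSEM to each Argonaute gene (y axis, bases, from 0) in the 12 libraries, by group on the x axis, with symbols for the replicate number and the bar for the mean ± SD of 3 libraries. AGO3 lies between 4027 and 5155 bases in LNCaP and between 11161 and 15323 in 22Rv1, and AGO4 is shortest in 22Rv1 piR-4447944 mimic replicate 2, at 3276 bases.

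The make-up of the Argonaute pool was described by the share of each gene in the summed TPM of the 4 Argonautes. The sum was 83.8 ± 2.3 TPM in LNCaP NC-mimic, 73.0 ± 2.22 in LNCaP piR-4447944 mimic, 45.4 ± 5.38 in 22Rv1 NC-mimic and 62.9 ± 6.59 in 22Rv1 piR-4447944 mimic (SD, n = 3 each). As CPM the sums were closer, at 468 ± 21.9, 450 ± 5.71, 380 ± 7.06 and 422 ± 5.28. All 22Rv1 libraries were below all LNCaP libraries on both scales.

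Over the 6 libraries of each line, AGO2 held 39.5% of the summed TPM in LNCaP and 30.6% in 22Rv1, a difference of -8.92 percentage points that did not pass (exact permutation p = 0.0519, adjusted p = 0.0692 over the 4 genes). It passed without LNCaP piR-4447944 mimic replicate 2, at -10.2, and without 22Rv1 NC-mimic replicate 2, at -10.7. AGO1 held 26.2% and 28.0% (exact permutation p = 0.468, adjusted p = 0.468). AGO3 held 20.0% in LNCaP and 13.2% in 22Rv1 (difference -6.81, exact permutation p = 0.00433, adjusted p = 0.00866). AGO4 held 14.3% in LNCaP and 28.2% in 22Rv1 (difference 13.9, exact permutation p = 0.00216, adjusted p = 0.00864). With CPM in place of TPM the AGO3 share was instead higher in 22Rv1, by 6.02 percentage points, and the decrease of the AGO2 share, at -9.92, passed the test. The AGO4 share by CPM was 10.9% in LNCaP and 15.2% in 22Rv1, a difference of 4.34 percentage points (exact permutation p = 0.013, adjusted p = 0.0173), smaller than by TPM.

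The AGO4 share was not even among the 22Rv1 libraries. It was 17.8% to 23.3% with NC-mimic, against 14.1% to 17.7% in LNCaP NC-mimic, and 18.4% to 44% with piR-4447944 mimic, against 12.4% to 14.4% in LNCaP with the same mimic. In each of these comparisons by TPM the lines did not overlap, and 3 libraries against 3 cannot give an exact p below 0.1. By CPM the AGO4 shares overlapped with NC-mimic, at 10.2% to 12.4% in LNCaP and 11.5% to 15.4% in 22Rv1, and with piR-4447944 mimic they were 10.1% to 11% and 11.2% to 23.2%.

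**Figure D4:**
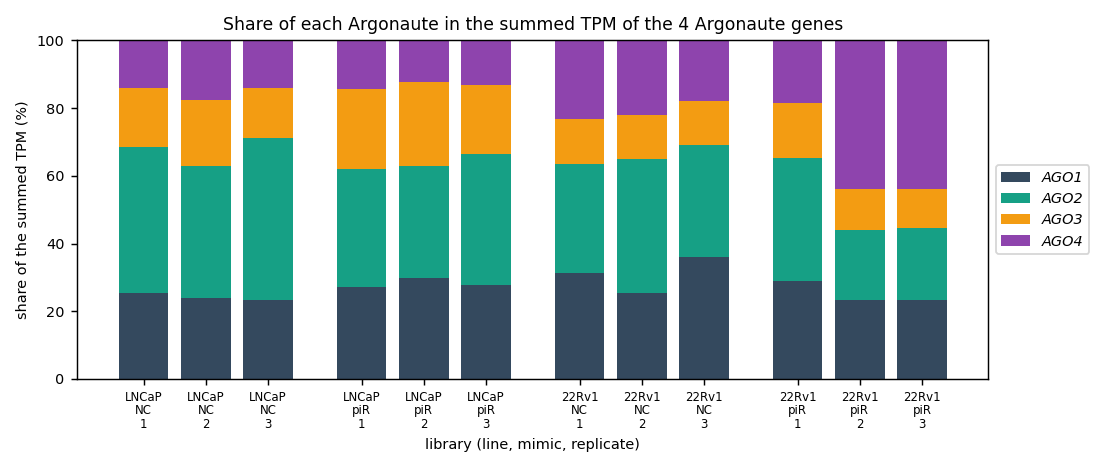
Share of AGO1, AGO2, AGO3 and AGO4 (y axis, percent, stacked to 100) in the summed TPM of the 4 genes in each of the 12 libraries on the x axis. AGO4 takes the largest share in replicates 2 and 3 of 22Rv1 piR-4447944 mimic, up to 44%.

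The comparison of piR-4447944 mimic with NC-mimic in each line asked whether these genes moved with the piRNA. In LNCaP 0 of the 10 genes had an adjusted p under 0.05 by edgeR, as had 0 of 16244 genes (0%), and in 22Rv1 it was 0 of 10 and 0 of 16898 genes (0%). At an unadjusted p under 0.05 edgeR had 433 and 250 genes, 0 of the 10 among them in either line. DESeq2's Wald test called 2 genes in LNCaP and 1 in 22Rv1, and limma on log2(TPM + 1) called 4 in each line, none of the 10 being among them. The study took genes with an absolute log2 fold change over 0.2 and an unadjusted p under 0.05. Its fold changes came from DESeq2 and were shrunk to limit the variance of genes with few reads. Here the same limits were put on unshrunk values, and this is what the study's rule means below. By it edgeR marked 0 of the 10 genes in LNCaP, where 2.22% of all genes were marked, and 0 of 10 in 22Rv1, where 1.48% were.

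The log2 fold changes of the 10 genes by edgeR lay between -0.16 (AGO4) and 0.12 (TARBP2) in LNCaP, with a median of -0.05 against 0.00 over all genes. In 22Rv1 they lay between -0.11 (PRKRA) and 0.44 (AGO4), with a median of 0.09 against -0.01. The intervals were narrower in LNCaP. That of AGO2 ran from -0.21 to 0.06 in LNCaP and from -0.35 to 0.40 in 22Rv1, and that of DICER1 from -0.29 to 0.13 and from -0.29 to 0.51. Changes inside these intervals are not excluded by these data, with 3 libraries a group.

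On the TPM scale some Argonaute values separated. In LNCaP AGO2 was at 37.3, 32.1 and 39.9 TPM with NC-mimic and at 26.0, 24.4 and 27.2 TPM with piR-4447944 mimic, without overlap, a log2 fold change of -0.47 (SE 0.11, unadjusted p = 0.00442 and adjusted p = 0.999 by limma). Its CPM overlapped, at 228, 211 and 218 against 202, 212 and 209. Its assigned length was 7203 to 9013 bases with NC-mimic and 10286 to 11622 with the mimic (exact permutation p = 0.1, the smallest possible), so the lower TPM came with longer assigned lengths and overlapping read numbers. AGO4 was at 12.2, 14.5 and 11.8 TPM against 10.8, 9.16 and 9.19 TPM, a log2 fold change of -0.37 (unadjusted p = 0.0193 and adjusted p = 0.999 by limma).

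These 2 genes, AGO2 and AGO4, were the members that met the study's rule by limma in LNCaP, where 4.2% of all genes did, and the members whose TPM did not overlap there, where 8.5% of all genes did not. In 22Rv1 the rule by limma was met by AGO3, at 0.42, and AGO4, at 1.06 (unadjusted p = 0.0434 and 0.0428, adjusted p = 0.999 for each), where 3.33% of all genes met it. TPM did not overlap for AGO1 and AGO3 in 22Rv1, or 2 of 10 genes against 8.85% of all genes.

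AGO3 in 22Rv1 was at 5.62, 6.72 and 5.47 TPM with NC-mimic and at 9.00, 8.08 and 7.74 TPM with piR-4447944 mimic, and its CPM, at 66.3, 72.8 and 48.5 against 77.4, 80.7 and 73.7, did not overlap either. By edgeR its log2 fold change was 0.30 (SE 0.17, adjusted p = 0.999), and 0.19 without both replicate 3 libraries. AGO1 in 22Rv1 was at 118, 123 and 121 CPM against 128, 127 and 125 CPM, and its log2 fold change was 0.06 (SE 0.11, adjusted p = 0.999 by edgeR).

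AGO4 in 22Rv1 was at 9.91, 11.3 and 7.49 TPM with NC-mimic and at 10.2, 29.6 and 29.0 TPM with piR-4447944 mimic. Replicate 1 of the mimic group lay within the NC-mimic range and replicates 2 and 3 near 29 TPM. As CPM the values were 54.4, 59.0 and 42.7 against 46.8, 68.0 and 97.9, so in replicates 2 and 3 the relative excess over NC-mimic was smaller in reads than in TPM. The assigned lengths were 6144, 3276 and 4703 bases in the mimic group against 6690 to 7272 with NC-mimic. By edgeR the log2 fold change was 0.44 (SE 0.26, adjusted p = 0.999). It was 0.03 without both replicate 3 libraries and 0.65 without piR-4447944 mimic replicate 1.

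Over both lines edgeR called 0 of the 10 genes and 0 of 18720 genes (0%), with 340 genes at an unadjusted p under 0.05 and none of the 10 among them. DESeq2 and limma called 0 genes each. The study's rule was met by 0 of the 10 genes by edgeR, where 1.54% of all genes met it, and by AGO3 by limma, at 0.32 (unadjusted p = 0.00906, adjusted p = 1 by limma), where 3.58% did. The difference of the effect between the lines was tested as an interaction, and edgeR called 0 of the 10 genes and 0 of 18720 genes (0%), with 610 at an unadjusted p under 0.05, while DESeq2 called 3 and limma called 3, none of the 10 being among them. The gene of this group with the smallest p was AGO4, at 0.60 by edgeR (SE 0.31, adjusted p = 1) and 1.42 by limma (SE 0.47, adjusted p = 1). By edgeR it was 0.18 without both 22Rv1 replicate 3 libraries and 0.83 without 22Rv1 piR-4447944 mimic replicate 1.

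**Figure D5:**
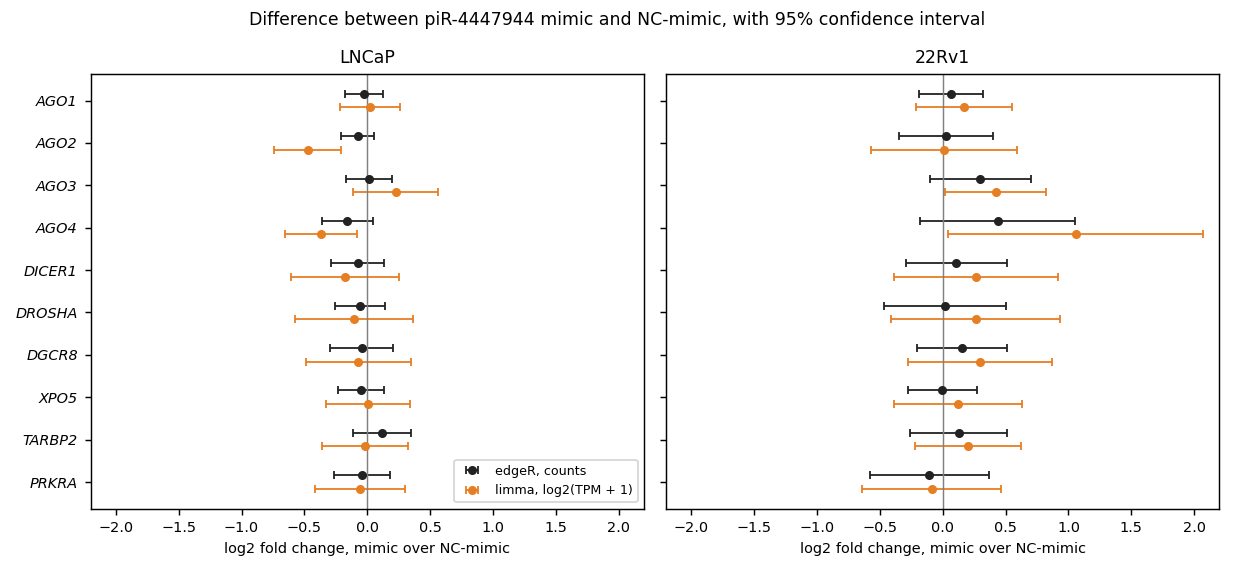
Log2 fold change of piR-4447944 mimic over NC-mimic (x axis) for the 10 genes, with 95% confidence intervals, in LNCaP (left) and 22Rv1 (right). Black points are edgeR on expected counts and orange points limma on log2(TPM + 1). By edgeR all 20 intervals include 0, and by limma those of AGO2 and AGO4 in LNCaP and of AGO3 and AGO4 in 22Rv1 do not.

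Genes that work with the Argonautes and the Microprocessor were counted from lists, by calls at an adjusted p under 0.05 and in 1 direction in both comparisons of the lines. Of all genes tested in both, 24.9% were higher and 21.5% lower in 22Rv1 by this count. Of 25 partners of the silencing complex, 6 were higher and 8 lower. PAN2, a subunit of a deadenylase that shortens mRNA tails, was at 61.9 ± 2.26 TPM in LNCaP NC-mimic and 136 ± 9.57 in 22Rv1 NC-mimic (SD, n = 3 each). TNRC6B, a GW182 protein that binds Argonautes directly, was at 27.7 ± 5.61 and 10.8 ± 2.79 TPM (SD, n = 3 each). By edgeR the log2 differences with NC-mimic were 1.19 for PAN2, 0.85 for CNOT2 and 0.64 for PAN3, which act in deadenylation as well. They were -1.21 for TNRC6B, -1.03 for the poly(A)-binding protein gene PABPC1 and -0.82 for the helicase gene MOV10.

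Of 14 Microprocessor cofactors, 4 were higher and 0 lower, with log2 differences with NC-mimic of 0.76 for HNRNPA2B1, 0.69 for ILF2 and 0.52 for SRRT. Of 10 chaperones that help to load Argonautes, 0 were higher and 5 lower, with log2 differences of -0.86 for HSP90AA1, -0.68 for HSPA8 and -0.54 for the HSP90 activator gene AHSA1. HSP90AA1 was at 988 ± 110 TPM in LNCaP NC-mimic and 522 ± 18.2 in 22Rv1 NC-mimic (SD, n = 3 each). These chaperones also fold many other proteins.

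Of 12 genes tested for the tailing and turnover of small RNAs, 2 were higher and 4 lower. DIS3L2, an exonuclease that degrades uridylated RNA, had a log2 difference of 0.92, and the non-canonical poly(A) polymerase TENT4A one of 0.45. The log2 difference was -1.41 for TUT7, a uridylyl transferase, -0.54 for TENT4B and -4.30 for the endonuclease gene ZC3H12A, the last with 32.4 ± 1.90 TPM in LNCaP NC-mimic and 1.98 ± 0.463 in 22Rv1 NC-mimic (SD, n = 3 each). Of 8 RNA sensors and related binders of immunity tested, 0 were higher and 4 lower, among them TLR3 and DDX58 with log2 differences of -2.88 and -1.59, and OAS1, at 3.78 ± 0.727 TPM in LNCaP NC-mimic and 0.05 ± 0.0866 in 22Rv1 NC-mimic (SD, n = 3 each). In the comparisons of the mimic, no gene of any list was called by edgeR, and none met the study's rule in 1 direction in both lines.

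Of the PIWI genes, PIWIL1 and PIWIL3 were at 0 expected counts in all libraries. PIWIL2 did not exceed 0.45 TPM and PIWIL4 did not exceed 0.70 TPM in any library, while the lowest Argonaute value in any library was 5.47 TPM.

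The transcripts that microRNAs are cut from were also read, as genes named as microRNA host genes. Of 72 such genes in the files 26 were tested in both comparisons of the lines, and 7 were higher and 4 lower in 22Rv1. Of all genes tested in both, 24.9% were higher and 21.5% lower, so such calls were common in the background. MIR99AHG, the host of a cluster on chromosome 21, was at 64.6 to 82.9 TPM in LNCaP and at 7.94 to 23.3 TPM in 22Rv1, a log2 difference of -2.92 with NC-mimic (SE 0.15, adjusted p = 2.84e-06 by edgeR). MIR7-3HG was at 0 TPM in all LNCaP libraries and at 4.50 to 18.8 TPM in 22Rv1. MIR646HG was at 5.52 to 7.39 TPM in LNCaP and at 0 in 22Rv1. MIR4500HG was at 0.12 TPM at most in LNCaP and at 1.74 to 7.95 TPM in 22Rv1. MIR210HG was at 2.27 to 6.17 TPM in LNCaP and at 15.8 to 25.4 TPM in 22Rv1 NC-mimic. In 22Rv1 piR-4447944 mimic its libraries lay far apart, at 11.7 to 257 TPM (104 ± 134, SD, n = 3). MIR193BHG was called lower, with a log2 difference of -3.07 with NC-mimic (SE 0.68, adjusted p = 0.00495 by edgeR), although its TPM overlapped there, at 2.12 to 2.60 in LNCaP and 0.06 to 3.18 in 22Rv1.

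Mature sequences within these host genes are shown for 3 hosts, chosen after their values were seen, with the seed in capitals.
hsa-miR-99a-5p: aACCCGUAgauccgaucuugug
hsa-let-7c-5p: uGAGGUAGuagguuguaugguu
hsa-miR-125b-5p: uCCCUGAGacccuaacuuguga
hsa-miR-4500: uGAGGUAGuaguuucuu
hsa-miR-7-5p: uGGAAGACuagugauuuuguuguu
The first 3 lie within MIR99AHG on the plus strand, at chr21:16539101-16539122, chr21:16539838-16539859 and chr21:16590253-16590274. The sequence of hsa-miR-4500 lies within MIR4500HG on the minus strand, at chr13:87618671-87618687, and that of hsa-miR-7-5p within MIR7-3HG on the plus strand, at chr19:4770700-4770723. As RefSeq gives them, let-7c-5p and miR-4500 have the same seed, and their host transcripts differed between the lines in opposite directions. Host transcripts are spliced RNAs, and their level does not give that of the mature microRNA.

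For each of the 10 genes, the gene with the most similar profile was sought by Pearson's r of log2 CPM over the 12 libraries among 18720 genes. For DROSHA this was NCOA2 (r = 0.976), for DGCR8 FAS (r = 0.918), for XPO5 NR2C1 (r = 0.993), for DICER1 SMCHD1 (r = 0.979), for TARBP2 AATBC (r = 0.905) and for PRKRA STRIP2 (r = 0.918). For the Argonautes it was USP17L2 for AGO1 (r = 0.954), GPAM for AGO2 (r = 0.988), MUSTN1 for AGO3 (r = 0.975) and PTTG1IP for AGO4 (r = 0.947). The 12 libraries are 6 of each line and share the line, so a gene that differs between the lines can reach a high r from that difference alone.

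Some of the 10 genes share exon bases with a gene on the opposite strand, and whether reads were counted by strand is not given in the sources used here. TARBP2 shares 541 of its 4090 exon bases (13.2%) with ENSG00000270175, which was at 4.06 CPM at most. PRKRA shares 1068 of 12061 exon bases (8.85%) with CHROMR, which was at 0.426 to 26.8 CPM, against 25.7 to 39.3 CPM for PRKRA. XPO5 shares 348 of 8481 exon bases (4.1%) with POLR1C, which was at 19.8 to 31.7 CPM. DICER1 shares 80 of 22151 exon bases (0.361%) with DICER1-AS1, which was at 9.08 to 18.8 CPM. Reads from these shared bases cannot be told apart without strand.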

How the data were processed

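Total RNA of the 12 samples was sequenced as mRNA libraries. Reads were mapped to hg38 with STAR 2.7.1a by the authors, and 60660 genes were quantified with RSEM 1.3.0. They deposited, per library, the expected count of each gene (estimated reads, not normalized), its TPM (scaled for length and to the same sum in every library) and its abundance-weighted length. The annotation release, strand and trimming are not given in the sources used here. The study tested with DESeq2 1.34.0 in R 4.1.1. A common TPM table was not used.

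Here expected counts were rounded, scaled by TMM and tested with edgeR 4.0.16 in R 4.3.3 (filterByExpr, glmQLFit, glmQLFTest), each comparison on its own 6 libraries, and on all 12 for the mean effect and the interaction. The Benjamini-Hochberg adjustment covered every gene of a fit, with 0.05 as the limit, and 95% intervals came from the estimate and its standard error. For edgeR the standard error was derived from the log2 fold change and the F statistic of its test. CPM are counts relative to the TMM-scaled library size. TPM were tested with limma 3.58.1 as log2(TPM + 1) for genes at 1 TPM or more in at least 3 libraries. This scale understates changes of low genes. Shares and lengths were compared by exact two-sided permutation tests (scipy 1.17.1). Positions are from GENCODE 44 on hg38, and symbols in the files were matched by name. The fits were also run on simulated counts in which a small part of the genes differed. That setting is unlike the comparisons of the lines, where most genes were called, and no result given here rests on it.

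The members and lists were chosen with earlier results of these data known. From each list the 3 genes with the largest difference in each direction among those called in both comparisons of the lines are named.

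For libraries that share a number, the deviation of each gene from its group mean was correlated. The 22Rv1 correlations were 0.166, 0.144 and 0.324 for numbers 1, 2 and 3, each above the limit of 0.1 set for taking numbers as pairs, though no label gives a shared batch. NC-mimic 1 with mimic 2 (0.16) and NC-mimic 2 with mimic 1 (0.105) were about as high, so the values set number 3 apart but do not tell numbers 1 and 2 from each other. In LNCaP it was 0.0122, 0.00292 and 0.164, and between the lines no number exceeded 0.0908, so those numbers were not taken to pair. Alternatives were DESeq2 1.42.0 and its size factors, testing without a filter or with a minimum of 10 counts, pseudocounts of 1 and 0.1 on TPM, a replicate block, all 12 libraries in 1 fit, and leaving out libraries.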

Additional observations from a re-analysis of the deposited data

How the results depend on the processing

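Turned directions with an adjusted p under 0.05 on the other scale concern AGO3. By limma on TPM its difference between the lines was -1.13 (pseudocount 1) and -1.25 (pseudocount 0.1) with NC-mimic and -0.94 and -1.01 with piR-4447944 mimic, against positive values by counts, and its share of the Argonaute pool differed by 6.02 percentage points with CPM, where the AGO2 share differed by -9.92. The assigned lengths given beside these values differ in the same libraries. Between the lines, 2 other signs turned from counts to log2(TPM + 1), and these passed on neither scale. They were DROSHA with piR-4447944 mimic, from -0.46 to 0.04, and TARBP2 with NC-mimic, from 0.14 to -0.06. With 1 library left out the AGO2 share differed by between -10.7 and -6.97, the length of AGO2 by between 2340 and 3670 bases, of DROSHA by between -904 and -584 and of PRKRA by between 213 and 290, or 246 without both replicate 3 libraries of 22Rv1. The calls of DROSHA and PRKRA were lost in most of these fits, which hold fewer libraries.

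Between the lines with piR-4447944 mimic, 3 of the 10 genes were called (and 52.4% of all genes), 5 with a replicate block (47.9%), 6 with all 12 libraries in 1 fit (55.4%), 7 without both 22Rv1 replicate 3 libraries (69.5%), and 2 to 7 with 1 library left out (38.2% to 69.5%). With NC-mimic 5 were called (58.4%), and 4 with a replicate block (55.5%), which ended the AGO1 call at -0.27. In the comparisons of the mimic the replicate block changed no call, with 0 genes called in either line.

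For the effect of the mimic in LNCaP, the number of genes called was 0, but 46 without the low-count filter, 2 by DESeq2, 4 and 5 by limma with pseudocounts 1 and 0.1, and 0 to 2 with 1 library left out. Of the 10 genes, those meeting the study's rule were 0, but 2 and 2 by limma, and 0 to 1 with 1 library left out (AGO4, at -0.25, without NC-mimic replicate 3). In 22Rv1 the genes called were 1 by DESeq2, 4 and 10 by limma and 4 without both replicate 3 libraries. Members meeting the rule there were 2 and 1 by limma, 1 with all 12 libraries in 1 fit (AGO3, at 0.30), 2 without both replicate 3 libraries (AGO2, at 0.22, and DICER1, at 0.27), and 0 to 1 with 1 library left out (AGO4, at 0.65, without piR-4447944 mimic replicate 1). Over both lines it was 1 and 1 by limma. Of all genes, 4.2% in LNCaP, 3.33% in 22Rv1 and 3.58% over both lines met the rule by limma with pseudocount 1. In the first edgeR fits these shares were 2.22%, 1.48% and 1.54%. For the other settings the share over all genes was not counted, so those counts of members cannot be set against it. For the interaction the genes called were 3 by DESeq2, 3 and 5 by limma, and 0 to 1 with 1 library left out. The cause of these shifts was not tested. None of the 10 genes was called for the mimic in any fit run. Small changes are limited by 3 libraries a group, as the 95% interval of AGO2 in 22Rv1 still ran from -0.35 to 0.40.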
